A study of Mus musculus with 6 samples.

Results

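The 5 genes described here are Dglucy (named 9030617O03Rik on the array), Pde6a, Kank3, Scamp5 and Dcxr. They were picked because their increases after SetD8 siRNA were among the largest in an earlier analysis of the same arrays. They are 5 of 14400 genes measured, and the array carries 8 probes for them, each printed as a single spot. Mouse G1E-ER-GATA-1 cells, an erythroid progenitor line without its own Gata1 that carries GATA-1 fused to the estrogen receptor's ligand-binding domain, were nucleofected at 0 h and again at 24 h. Control cells (3 arrays) received non-targeting siRNA and knockdown cells (3 arrays) received SetD8-specific siRNA. All cells of both groups were grown with erythropoietin (2 U/ml) and Kit ligand, were given β-estradiol for 24 h and were harvested at 48 h. SetD8 (Setd8, current symbol Kmt5a) monomethylates lysine 20 of histone H4. Nothing in the labels states that replicate arrays were hybridised with RNA of separate cultures, and p-values therefore describe variation among these 6 arrays, some of it possibly technical.

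The 5 genes belong to unrelated families and are best known from other tissues. Pde6a encodes the alpha catalytic subunit of the rod photoreceptor phosphodiesterase, which hydrolyses cyclic GMP in response to light. Scamp5 is a secretory carrier membrane protein known from synaptic vesicles of neurons, and Kank3 is an ankyrin repeat protein of the KANK family, adaptors that link talin and microtubule motors to the cell cortex. Dglucy encodes D-glutamate cyclase, a mitochondrial enzyme that turns D-glutamate into 5-oxo-D-proline, and Dcxr reduces L-xylulose and dicarbonyl sugars, best known from liver and kidney. The transcription factor p53, which cells stabilise after DNA damage, activates target genes by binding pairs of a short half-site.

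Because each value rests on what a probe can bind, 4 of the probe sequences are shown, in lower case with no part singled out. They are the probes of Dglucy, Kank3 and Dcxr that hold a reading frame without a stop and no poly(A) signal, and they lie at chr12:102097802-102097861, chr17:33956881-33956940, chr11:120587276-120587416 and chr11:120587140-120587199 on mm9.
Dglucy dimmer probe: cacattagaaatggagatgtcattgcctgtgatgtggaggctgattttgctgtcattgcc
Kank3 dimmer probe: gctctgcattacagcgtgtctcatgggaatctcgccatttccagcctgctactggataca
Dcxr brighter probe: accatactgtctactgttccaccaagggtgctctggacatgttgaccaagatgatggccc
Dcxr dimmer probe: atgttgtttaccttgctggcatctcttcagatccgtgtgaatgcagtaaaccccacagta
The brighter Dcxr probe has 60 bases spread over 141 bases of genome. Other probes lie at chr12:102110492-102110551 (Dglucy), chr17:33959800-33959859 (Kank3) and chr9:57289753-57289812 (Scamp5). In the reference table a pseudogene lies within the span of Dglucy (Gm8482) and another within that of Pde6a (Rps2-ps10), and neither was measured.

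Promoter sequences are shown because the genes increased together and a p53 link had been raised. RefSeq windows on GRCm38.p6 were matched for 4 of the 5 genes, and the 250 bases before each start are printed 5′ to 3′ in the direction of the gene. Capitals mark matches to the p53 half-site consensus with 1 mismatch outside its fixed C and G. The windows are chr12:100778807-100779056 on the plus strand for Dglucy, chr17:33810273-33810522 on the plus strand for Kank3, chr9:57468061-57468310 on the minus strand for Scamp5 and chr11:120727285-120727534 on the minus strand for Dcxr.
Dglucy promoter: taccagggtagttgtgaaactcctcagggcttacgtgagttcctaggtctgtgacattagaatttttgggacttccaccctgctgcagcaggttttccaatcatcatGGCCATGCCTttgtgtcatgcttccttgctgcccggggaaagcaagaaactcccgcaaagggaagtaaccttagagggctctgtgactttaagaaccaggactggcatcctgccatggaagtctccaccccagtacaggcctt
Kank3 promoter: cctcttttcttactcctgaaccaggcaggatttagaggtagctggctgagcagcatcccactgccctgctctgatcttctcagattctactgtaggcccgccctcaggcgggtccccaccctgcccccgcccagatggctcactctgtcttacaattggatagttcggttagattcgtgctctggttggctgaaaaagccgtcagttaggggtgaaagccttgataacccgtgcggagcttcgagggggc
Scamp5 promoter: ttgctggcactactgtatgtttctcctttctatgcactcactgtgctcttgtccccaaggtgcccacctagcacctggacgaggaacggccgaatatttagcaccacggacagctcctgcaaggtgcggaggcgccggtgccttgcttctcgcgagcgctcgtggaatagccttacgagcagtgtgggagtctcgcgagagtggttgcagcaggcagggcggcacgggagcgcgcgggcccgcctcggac
Dcxr promoter: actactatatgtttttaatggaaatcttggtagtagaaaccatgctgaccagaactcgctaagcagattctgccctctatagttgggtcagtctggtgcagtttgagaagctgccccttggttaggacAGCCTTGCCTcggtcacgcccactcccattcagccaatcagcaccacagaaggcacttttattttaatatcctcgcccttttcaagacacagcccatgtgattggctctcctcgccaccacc
Over the whole window of 300 bases, 50 of them after the start, 0 of the 4 promoters held the p53 half-site consensus without mismatch, which 8.36% of all 32851 promoters of that length hold. With 1 mismatch, Dglucy and Dcxr held 1 each, starting 143 and 122 bases before the start, and 50.9% of all promoters hold such a match. The consensus reads the same on both strands. A match is a run of letters and not a binding site, and windows of this length leave out introns and distal sequence.

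Other short motifs were searched on both strands. The motif CCAAT was in 4 of 4 windows (37.4% of all promoters). The motif GGGCGG was in 2 of 4, those of Kank3 and Scamp5 (35.7%). Both the TATA box motif TATAAA, which 13.6% of all promoters hold, and the erythroid factor motif AGATAA, which 11.2% hold, were in 0 of 4. No match of one motif overlapped a match of another. The promoters differed in base composition. G and C made up 66.0% of the Scamp5 window and 58.3% of the Kank3 window, against 53% for Dglucy and 50.7% for Dcxr and a median of 52.7% over all promoters. The ratio of observed to expected CpG was 0.98 for Scamp5 and 0.59 for Kank3 but 0.14 for Dglucy and 0.38 for Dcxr, with a median of 0.38.

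Setd8, the gene targeted, read 4.34, 4.95 and 3.14 on the control arrays and 2.07, 1.82 and 1.83 on the SetD8 arrays, in log2 units over the array's 75th percentile, so the groups matched their labels. Its log2 difference was −2.07 ± 0.15 (SE, adjusted p = 0.00844 by limma) after normexp and quantile normalization and −2.24 ± 0.51 (adjusted p = 0.681) at the 75th percentile. The array carries 2 probes for Setd8, and these values rest on the brightest kept one. The mean of its kept probes gave a smaller decrease, −1.80 at the 75th percentile.

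All 5 genes gave signal in the control cells. Of the 8 probes 7 were well above background on all 6 arrays, and the dimmer Dglucy probe was so on 2 of 3 control arrays and 3 of 3 SetD8 arrays. Raw spot signal in control cells was 10.6 to 12.9 times the median of the array's negative control spots for the brighter Dcxr probe and 4.29 to 7.45 times for Pde6a. It was 2.96 to 4.04 times for the brighter Dglucy probe, 3.59 to 3.84 times for the brighter Kank3 probe and 2.28 to 3.92 times for Scamp5. The dimmer Dglucy probe stood lowest over the negative controls, at 1.44 to 2.09 times. The dimmer Kank3 probe was at 1.64 to 2.35 times and the dimmer Dcxr probe at 6.34 to 7.57 times. After SetD8 siRNA the same ratios ranged from 4.63 on the dimmer Dglucy probe to 88.0 on the brighter Dcxr probe. Although the genes were picked as tissue-restricted, their control levels were thus above the negative controls, and with 1 cell line these data hold no other tissue to compare.

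**Figure D1:**
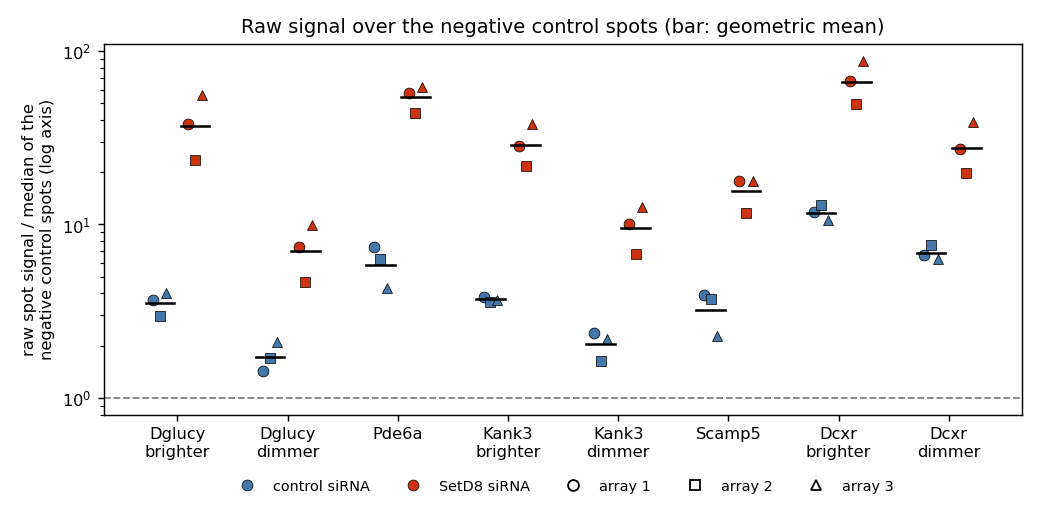
Raw spot signal of the 8 probes divided by the median of the array's negative control spots, on a log axis, for each of 3 control siRNA and 3 SetD8 siRNA arrays, with bars at the geometric mean. Every probe lies above the dashed line at the negative control level in control cells, from 1.44 times on the dimmer Dglucy probe to 12.9 times on the brighter Dcxr probe.

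The levels that follow are log2 of the processed signal minus that of the 75th percentile of all probes on the array, so a probe above 0 is a bright one. The differences between groups chose the genes and are given as a description, with no test. On each of the 8 probes every SetD8 array was above every control array. Every SetD8 array was above every control array for 5.45% of the 14400 genes at this scaling and below for 2.11% (13.8% and 9.97% after normexp and quantile normalization), and nothing is read from it for genes picked by that difference.

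The metabolic enzymes Dglucy and Dcxr differed in the size of the increase, and both were highest on SetD8 3. The brighter Dglucy probe read −0.18, −0.25 and −0.49 on control arrays 1, 2 and 3, whereas SetD8 arrays 1, 2 and 3 read 3.47, 3.40 and 4.29. The groups are far apart, the lowest SetD8 array standing 3.58 above the highest control, and SetD8 3 was the highest. The difference was 4.03, or 16.3-fold, the largest of all 14400 genes at this scaling. On the dimmer Dglucy probe, whose control 1 spot was not well above background, the control arrays read −3.53, −2.19 and −2.05 and the SetD8 arrays 0.84, 0.63 and 1.43. The dimmer probe stood lower on every array, and its difference was 3.56 (11.8-fold).

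The brighter Dcxr probe read 1.74, 2.27 and 1.20 on the control arrays and 4.10, 4.29 and 4.72 on the SetD8 arrays, a difference of 2.63 or 6.20-fold. All 3 control arrays were above 0 on this probe. The dimmer Dcxr probe read 0.88, 1.50 and 0.34 against 2.87, 3.02 and 3.62, a difference of 2.26 or 4.79-fold. It was annotated to another transcript record than the brighter probe, and whether both read the same Dcxr transcript was not tested. On both Dcxr probes control 2 was the highest control and control 3 the lowest.

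The single Pde6a probe lies at chr18:61449307-61449366 on mm9. Pde6a read 1.06, 1.23 and −0.39 on the control arrays and 3.94, 4.16 and 4.20 on the SetD8 arrays, a difference of 3.47 or 11.1-fold. Its SetD8 arrays were close together (4.10 ± 0.14, SD, n = 3) and its control arrays were not (0.63 ± 0.89, SD, n = 3), because control 3 lay well below controls 1 and 2. Scamp5, also on a single probe, had the same form, with −0.14, 0.19 and −1.79 on the control arrays and 2.19, 2.20 and 2.42 on the SetD8 arrays. Its difference of 2.85 (7.21-fold) depended on control 3 and was 2.25 without that array.

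Kank3 read −0.32, −0.06 and −0.69 on the control arrays and 2.71, 2.88 and 3.28 on the SetD8 arrays with its brighter probe, a difference of 3.32 or 9.96-fold. With its dimmer probe it read −1.35, −2.04 and −2.01 against 1.18, 1.05 and 1.72, a difference of 3.12 or 8.67-fold. The 2 Kank3 probes therefore gave much the same increase at this scaling. In control cells the dimmer probe stood at only 1.64 to 2.35 times the negative control median, which limits this comparison. After normexp and quantile normalization the differences were 3.04 and 2.17.

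**Figure D2:**
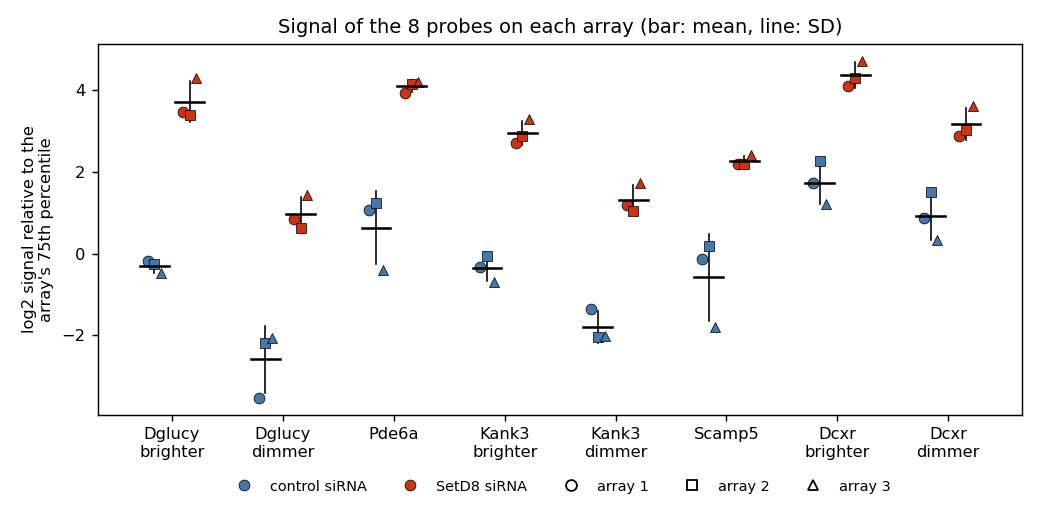
Log2 signal minus log2 of each array's 75th percentile (vertical axis) for the 8 probes on each of 3 control siRNA and 3 SetD8 siRNA arrays, with the group mean as a bar and the SD as a line. The groups do not overlap on any probe, and control 3 is the lowest control array on 6 of the 8.

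Among the SetD8 arrays, SetD8 3 was the highest on 8 of 8 probes at the 75th percentile, SetD8 1 the lowest on 5 and SetD8 2 on 3. Under normexp correction with quantile normalization SetD8 3 was highest on 7 of 8, and SetD8 1 and SetD8 2 were lowest on 4 each. Among the controls, control 3 was lowest on 6 of 8 probes at the 75th percentile. Setd8 and Trp53, outside the 5 genes, also had their lowest control value on control 3 (3.14 and 1.69). The share of all genes with either order was not counted, and nothing particular to the 5 genes is read from it. Control 3 was also the array with the largest share of spots well above background, 82.5% against 40.2% to 68.6% on the others, and its 75th percentile (258 intensity units) was the highest of the range of 132 to 258. The part of these array properties in the order of the values was not tested.

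At the 75th percentile the increases were larger between the arrays of slide 3 than within slide 1 for every probe except the dimmer Dglucy one, whose control 1 spot was not well above background. After normexp and quantile normalization they were larger on slide 3 for that probe too, 2.49 against 1.96, as for the other 7. Slide 1 held control 1, SetD8 1 and SetD8 2, slide 3 held control 3 and SetD8 3, and control 2 stood alone on slide 2. For the brighter Dglucy probe the log2 difference at the 75th percentile was 3.61 within slide 1 and 4.78 within slide 3. For Pde6a it was 2.99 and 4.60, for the brighter Kank3 probe 3.12 and 3.97, for Scamp5 2.34 and 4.21, and for the brighter Dcxr probe 2.46 and 3.51. All 8 probes were thus higher after SetD8 siRNA within each slide that held both groups, with 1 control array in each.

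The probe-level increases were smaller after normexp and quantile normalization, which adds an offset of 50 intensity units and so reduces differences of dim probes. There the log2 difference was 3.44 for the brighter Dglucy probe but 1.91 for the dimmer one, and 3.04 against 2.17 for Kank3 and 2.61 against 2.12 for Dcxr. Pde6a (3.38) and the brighter Dcxr probe changed little between the scalings, while Scamp5 moved from 2.85 to 2.33. In that processing the genes ranked 1 (Dglucy), 2 (Pde6a), 4 (Kank3), 6 (Dcxr) and 10 (Scamp5) of 14400 by increase. Ak1, Phlda3, Hbb-bh1, Rec8 and Trp53inp1 ranked between them. The next gene after Scamp5 was the water channel gene Aqp8, with a difference of 2.22. At the 75th percentile the ranks were 1, 6, 7, 19 and 11, and Phlda3 came next after Dcxr with 2.60.

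**Figure D3:**
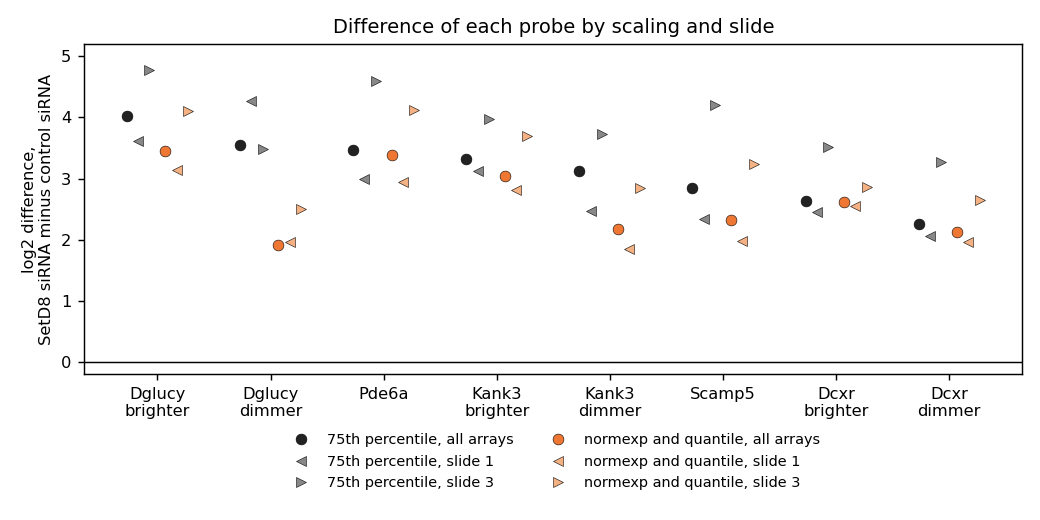
Log2 difference, SetD8 siRNA minus control siRNA (vertical axis), of each probe at 2 scalings, over all arrays and within slides 1 and 3. At the 75th percentile the values over all arrays run from 2.26 for the dimmer Dcxr probe to 4.03 for the brighter Dglucy probe, and after normexp and quantile normalization from 1.91 to 3.44.

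The genes were set against their own families, in lists that leave out the 5 genes. Calls are given from limma after normexp and quantile normalization, with Benjamini-Hochberg adjustment over all 14400 genes. There 210 genes were called higher (1.46%) and 34 lower (0.236%), with a median log2 difference over all genes of 0.03. Scaled to the 75th percentile, limma gave 0 calls in either direction and 443 genes (3.08%) at an unadjusted p under 0.05, so every call named here is absent in that fit. After normexp and quantile normalization 2278 genes (15.8%) had an unadjusted p under 0.05, which is the share to set beside the unadjusted counts of the lists. With slide as a block the shares called higher and lower were 0.118% and 0.00694% after normexp and quantile normalization and 0.812% and 0.0833% at the 75th percentile. Among the 10812 genes well above background on all arrays they were 0.879% and 0.0832% at the 75th percentile.

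The other subunits of the rod phosphodiesterase did not pass. Pde6b, the beta catalytic subunit, was well above background on 1 control array and all 3 SetD8 arrays, with a log2 difference of 0.35 (adjusted p = 0.396). Pde6g, the inhibitory gamma subunit, stood at −0.02 (adjusted p = 0.962), and Pde6d, the subunit that binds prenyl groups, at −0.07 (0.886). Pde6h, the cone gamma subunit, had a difference of 1.08 that did not pass (adjusted p = 0.0698). Of 7 cone and other PDE6 genes measured, 2 only through the SetD8 arrays, 0 passed in limma and 1 had an unadjusted p under 0.05 (15.8% of all genes). Of 16 other phosphodiesterases measured, 6 of them kept only through the SetD8 arrays, 0 passed in either direction in limma. Of these 16, 1 had an unadjusted p under 0.05 (15.8% of all genes) and the median was 0.08.

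Of 24 rod photoreceptor genes on the array 6 were well above background on all control arrays and 10 on all SetD8 arrays. Cnga1, a subunit of the rod's cyclic GMP-gated channel, was not well above background on any array, and transducin alpha (Gnat1) was so on 1 control and 0 SetD8 arrays. Of the 10 rod genes measured, 4 only through the SetD8 arrays, 1 rose and 0 fell (1.46% and 0.236% of all genes), with a median of 0.08. The gene that rose was Rom1, a disc membrane protein, 2.83-fold higher (log2 1.50 ± 0.14 SE, adjusted p = 0.0105 by limma, 0.05003 with slide as a block). The summed level of the rod list, in units of the array's 75th percentile, was 21.5 to 37.8 on control and 49.7 to 58.0 on SetD8 arrays. Without Rom1 it was 9.42 to 11.5 and 9.15 to 11.2, so the groups overlapped.

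The other KANK genes gave little signal. Kank1 was well above background on 0 arrays, Kank2 on 2 control and 1 SetD8 arrays and Kank4 on 1 control and 0 SetD8 arrays, so 0 of these 3 could be tested. Among the 10 measured partners of KANK proteins at the cell cortex, 2 of them kept only through the SetD8 arrays, 0 passed in limma. An unadjusted p under 0.05 was seen for 1 (15.8% of all genes). The largest difference was that of talin 1 (Tln1), which KANK proteins bind, at 0.50 (adjusted p = 0.0807). Of 13 endothelial markers, given because Kank3 is known from blood vessels, 2 were well above background on all control arrays, with a summed level of 95.7 to 132 on control and 82.7 to 130 on SetD8 arrays. The endothelial cadherin Cdh5 was so on 0 control arrays and 1 SetD8 array.

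The other SCAMP genes, carriers of the general secretory pathway, did not pass either. Scamp2, Scamp3 and Scamp4 had log2 differences of 0.27, 0.23 and 0.33, with adjusted p of 0.352, 0.537 and 0.222, and Scamp1 was not measured. Of 18 neuronal and synaptic genes 8 were well above background on all control arrays, and their summed level was 33.2 to 72.2 on control and 49.96 to 56.2 on SetD8 arrays. Of the 11 measured, 3 only through the SetD8 arrays, 0 passed in limma and 1 had an unadjusted p under 0.05 (15.8% of all genes). That gene was the neuronal tubulin Tubb3, with a difference of 1.45 and an adjusted p of 0.0548. Scaled to the 75th percentile and blocked by slide, limma called Tubb3 (1.90, adjusted p = 0.00929), in a fit with 2 residual degrees of freedom that gave the list genes it called the same standard error of 0.47.

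Around Dcxr, of 14 measured genes of xylulose and dicarbonyl metabolism 2 rose and 0 fell (1.46% and 0.236% of all genes). Of the 14, 8 had an unadjusted p under 0.05 (15.8% of all genes), with a median log2 difference of 0.38 against 0.03 over all genes. Khk, ketohexokinase, was 2.84-fold higher (1.50 ± 0.14 SE, adjusted p = 0.0100) and Sord, sorbitol dehydrogenase, 1.91-fold higher (0.93 ± 0.12 SE, adjusted p = 0.0264). Neither passed with slide as a block, Khk at an adjusted p of 0.0621 and Sord at 0.112. Xylb, xylulokinase, which acts downstream of Dcxr, had a difference of −0.27 (adjusted p = 0.740). Of 13 liver and kidney markers 4 were well above background on all control arrays. The summed level of the list was 6.74 to 7.55 on control and 8.42 to 9.96 on SetD8 arrays, so the groups did not overlap. Albumin (Alb) was well above background on 1 control and 0 SetD8 arrays. Of 7 markers measured, 3 only through the SetD8 arrays, 0 passed in limma and 2 had an unadjusted p under 0.05 (15.8% of all genes). All 7 had a positive difference, as had 55.0% of all genes, and the median was 0.37 against 0.03 over all genes. With slide as a block 6 of 7 were positive. The filter favours a positive sign for the 3 kept only through the SetD8 arrays, so nothing is read from these signs. A shift of the list as a whole was not tested.

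Around Dglucy, 0 of 15 measured genes of D-amino acid and glutamate metabolism passed in limma, 6 had an unadjusted p under 0.05 (15.8% of all genes) and the median was 0.09. Serine racemase (Srr), which makes D-serine, had a difference of 0.51 (adjusted p = 0.0897), and the glutathione synthesis enzyme gene Gclc −0.58 (0.0672). The cells themselves carried their erythroid markers. All 14 erythroid genes on the array were well above background on every array. In limma 1 of them rose (1.46% of all genes), the embryonic globin gene Hbb-bh1 (2.52 ± 0.19 SE, adjusted p = 0.00877), and 0 fell (0.236%). An unadjusted p under 0.05 was seen for 5 (15.8% of all genes), and the median was 0.04. Every SetD8 array was above every control array for 4 (13.8% of all genes) and below for 3 (9.97%). Slc4a1 at −1.19 (adjusted p = 0.193) and Ank1 at −0.48 (0.0807) were lower but did not pass.

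Of 31 measured genes that p53 is known to activate, 1 only through the SetD8 arrays, 12 rose, 0 fell and 19 did not pass. Over all genes 1.46% were called higher and 0.236% lower. The list was chosen with earlier results of these data known, so its count is not independent of them. The median log2 difference was 0.81 against 0.03 over all genes. At the 75th percentile limma called 0 of them, with 12 at an unadjusted p under 0.05 (3.08% of all genes). The 4 with the smallest p were Trp53inp1, which promotes p53 phosphorylation (2.34 ± 0.19 SE, adjusted p = 0.00877), Ak1, adenylate kinase 1 (3.18 ± 0.29 SE, 0.0100), Phlda3, an inhibitor of Akt signalling (2.71 ± 0.25 SE, 0.0100), and Psrc1, a spindle protein (1.44 ± 0.13 SE, 0.0100). Ak1 read −0.42, −0.30 and −0.92 on the control arrays and 2.84, 2.78 and 3.78 on the SetD8 arrays at the 75th percentile, and Phlda3 2.42, 2.71 and 1.06 against 4.64, 4.95 and 4.40. The groups did not overlap for either gene, and control 3 was the lowest array, as it was among the controls for Setd8 and Trp53. The other 8 that rose were Cdkn1a, the p21 cell cycle inhibitor, the cyclin gene Ccng1, the cell death genes Bax, Bbc3, Aen and Pidd1, the RNA-binding zinc finger gene Zmat3 and the DNA repair gene Ercc5. These calls rest on the brightest probe. Counting dim probes too, the 3 Cdkn1a probes differed by −0.02 to 1.72 and the 2 Ercc5 probes by 0.15 to 1.04. The 2 probes each of Trp53inp1 (1.95 to 2.34), Aen (1.18 to 1.19) and Pidd1 (1.08 to 1.80) were all higher. Dcxr had stood in the p53 list of the earlier analysis and, as one of the 5 genes, was left out of this count. With slide as a block after normexp and quantile normalization 1 of the 12 remained called, Phlda3 (adjusted p = 0.0373), against 0.118% of all genes called higher. In the slide-blocked fit scaled to the 75th percentile 7 of the 12 were called (Ak1, Phlda3, Trp53inp1, Zmat3, Pidd1, Ccng1 and Psrc1), each with a standard error of 0.47. That fit called 0.812% of all genes higher. After normexp and quantile normalization limma called 0 of them without control 1, SetD8 1, SetD8 2 or SetD8 3. Those fits called 0, 0, 0 and 5 of all genes higher. Without control 2 and control 3 it called 11 and 12 of them, and 107 and 173 of all genes higher.

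The transcript of p53 itself did not pass. Trp53 read 1.99, 2.94 and 1.69 on the control arrays and 2.09, 1.76 and 1.79 on the SetD8 arrays relative to the 75th percentile, and the groups overlapped. Its log2 difference was −0.19 ± 0.16 (SE, adjusted p = 0.666) after normexp and quantile normalization and −0.33 at the 75th percentile. With slide as a block, or without control 2, the difference at the 75th percentile was 0.0013 and 0.035. The arrays measure transcripts, so p53 protein was not measured, and a link between p53 and the 5 genes was not tested.

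**Figure D4:**
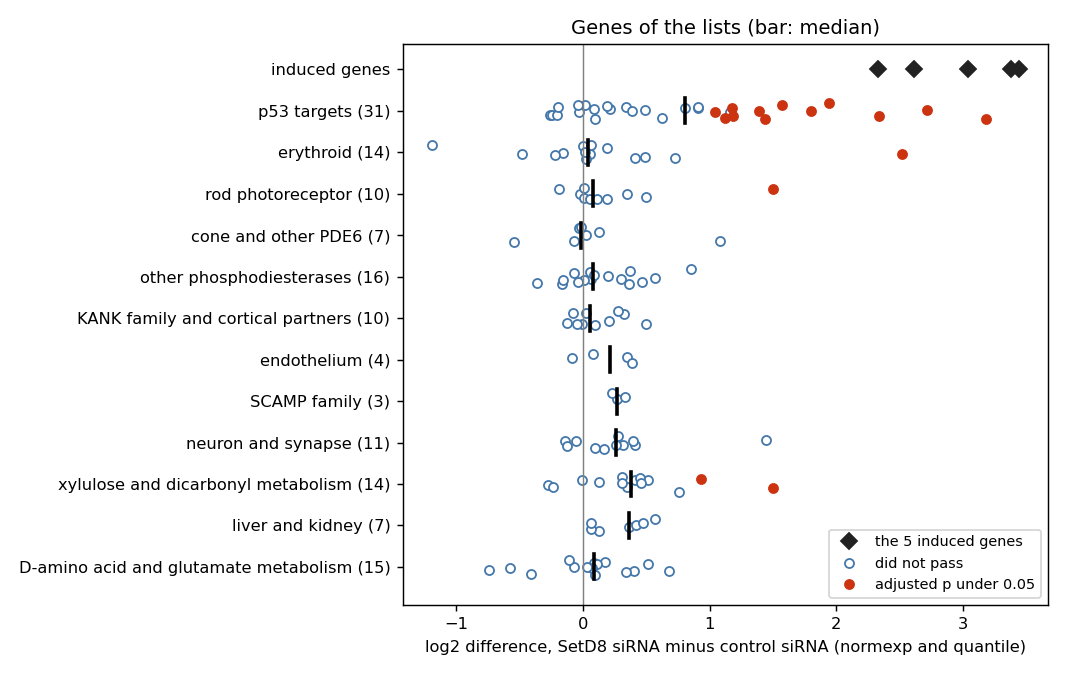
Log2 difference after normexp and quantile normalization (horizontal axis) for the 5 induced genes and for the measured genes of each list, one point a gene, with filled points for an adjusted p under 0.05 and bars at the list median. The p53 list has 12 filled points, and the lists built around the 5 genes have 3 in all, Rom1, Khk and Sord.

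Profiles over the 6 arrays, each centred on its own mean at the 75th percentile scaling, were compared by their root mean square difference, which favours genes of the same size of change. Closest to Dglucy was Ak1 (0.21), followed by the aspartate aminotransferase-like gene Got1l1 (0.34) and Kank3 (0.40). Closest to Kank3 were Got1l1 (0.19), Ak1 (0.26) and Crybg1 (0.33). Closest to Pde6a were Scamp5 (0.33), Kank3 (0.37) and Ak1 (0.45). Scamp5 was nearest to Phlda3 (0.27), the transporter gene Abcc6 (0.28) and Sgsm2 (0.32), and Dcxr to Hbb-bh1 (0.10), Sgsm2 (0.15) and Crybg1 (0.20). Got1l1, Crybg1, Abcc6 and Sgsm2 were close at this scaling alone in size, since after normexp and quantile normalization their differences were 1.37, 1.01, 0.43 and 1.24.

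No neighbouring gene was called. Taking the 2 nearest measured genes on each side of each of the 5, 0 of 20 passed in limma after normexp and quantile normalization, with 4 at an unadjusted p under 0.05 (15.8% of all genes), and 0 of 20 at the 75th percentile, with 1 (3.08% of all genes). Their differences ran from −0.44 (Csnk1a1, casein kinase 1 alpha, beside Pde6a) to 0.77 (Ttc7b, beside Dglucy, adjusted p = 0.183), with a median of 0.06. Angptl4, a lipoprotein lipase inhibitor beside Kank3, had 1.88 at the 75th percentile and 0.56 (adjusted p = 0.406) after normexp and quantile normalization. Non-coding region probes lay within 50 kb of a member probe at Kank3 alone, 3 in all, and the one well above background on all 3 SetD8 arrays had a difference of 1.16 at the 75th percentile and 0.20 after normexp and quantile normalization.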

How the data were processed

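Spot intensity (linear) was read from the deposited scanner output of 1-colour arrays labelled with Cy3. Per the file headers it comes from Agilent's Feature Extraction 10.7.3.1, which subtracts background with detrending, and positions refer to mm9. Values of the authors' series matrix differ from this intensity by at most 0.005. The submitters' processing notes name limma but give no setting.

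There were 62976 spots on an array. Control spots and the 139 to 176 outlier spots per array were left out, and spots of a probe averaged, which left 55681 probes. RefSeq names (GRCm38.p6, names only) were matched for 22228 genes. Probes had to be well above background on every array of at least 1 group, and the brightest kept probe stood for a gene (14400 genes). Log2 intensity minus each array's 75th percentile was the setting fixed in the design. Normexp (offset 50) with quantile normalization was 1 of its alternatives. Limma 3.58.1 in R 4.3.3 tested SetD8 minus control for all genes, two-sided, with a threshold of 0.05 after Benjamini-Hochberg adjustment, and was tested on simulated data. No spot was saturated.

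The 5 genes and all lists were chosen with earlier results of these data known, and lists hold textbook genes. Named were every probe of the 5 genes, Setd8, Trp53, list genes past the threshold (at most 4 a list by p), neighbours, genes of like profile, and defining or brightest markers. Any other list gene named was picked with its values in view. The labels number the replicates without saying that the numbers pair samples, and the fits did not pair them except where a replicate block is named. Python 3.11.15 (pandas 2.3.3, numpy 2.4.6) made the tables. The number of arrays limits the precision.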

Additional observations from a re-analysis of the deposited data

How the results depend on the processing

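No alternative turned the direction of any of the 5 genes, and the groups' lack of overlap fixes that direction. Over the 26 settings the log2 difference ran from 3.22 to 4.19 for Dglucy, 2.95 to 3.78 for Pde6a, 2.82 to 3.52 for Kank3, 1.91 to 3.25 for Scamp5 and 2.13 to 2.91 for Dcxr. Dglucy moved by more than its SD to 3.44 with normexp and quantile normalization, 3.34 with normexp and the 75th percentile, 3.53 with median scaling and 3.55 with slide as a block after normexp and quantile normalization. Kank3 moved to 2.90 with normexp and the 75th percentile and 2.82 with median scaling, and Dcxr to 2.13 with median scaling. Median scaling moved the median of all genes to −0.46, against 0.04 at the 75th percentile. Leaving out 1 array gave 3.74 to 4.19 for Dglucy, 3.15 to 3.47 for Kank3, 2.95 to 3.77 for Pde6a, 2.25 to 3.24 for Scamp5 and 2.36 to 2.90 for Dcxr at the 75th percentile. After normexp and quantile normalization it gave 3.22 to 3.58 (3.48 without control 1, 3.51 without control 2), 2.84 to 3.19 (2.92 without SetD8 3), 3.02 to 3.58, 1.91 to 2.59 and 2.49 to 2.71.

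Counts of calls depended on the processing. Limma called 0 genes at the 75th percentile and 210 higher and 34 lower with normexp and quantile normalization (12 p53 targets and 4 genes of other lists higher). It called 35 and 1 with normexp and the 75th percentile (4 and 1), 115 and 9 with an offset of 16 (10 and 4), and 43 and 2 with quantile normalization of the processed signal (4 and 3). It called 95 and 9 with probes well above background on all arrays (7 and 2), 117 and 12 with slide as a block (7 and 2), and 17 and 1 with slide as a block after normexp and quantile normalization (1 and 1). The cause was not tested, except that fewer genes were tested (10812) with the stricter filter. Leaving out 1 array gave 0 to 131 higher and 0 to 11 lower at the 75th percentile (0 to 8 p53 targets, 0 to 3 others), the highest count being that without control 2. After normexp and quantile normalization it gave 0 to 173 and 0 to 33 (0 to 12, 0 to 5), with 5 higher without SetD8 3 and 107 without control 2. Trp53 changed sign at the 75th percentile, to 0.0013 with slide as a block and, leaving out 1 array, within −0.59 to 0.035 (0.035 without control 2).

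The labels do not say whether same-numbered arrays are paired. Deviations of same-numbered arrays correlated at 0.235, −0.269 and −0.370 at the 75th percentile, and those of unlike-numbered arrays at −0.362 to 0.421. These values cannot decide on pairing, because same-numbered arrays 1 and 3 also shared a slide. With a replicate block limma called 0 genes at either scaling, 0 of them p53 targets or genes of other lists, and the 5 differences kept their values, with 3.44 for Dglucy after normexp and quantile normalization. A p53 half-site was in 0 of 4 promoters without mismatch and in 2 with 1. Dim signal limits the dimmer Dglucy probe, which was well above background on 2 of 3 control arrays. It also limits the dimmer Kank3 probe, at 1.64 to 2.35 times the negative control median in control cells.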
